A study of Mus musculus with 18 samples.

Results

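The genes described here encode the nuclear subunits of oxidative phosphorylation, followed in resting and TLR-stimulated B cells. They were chosen by symbol: names beginning with Nduf and a letter a, b, c, s or v followed by a number (complex I), Sdha to Sdhd (complex II), Uqcr (complex III), Cox4 to Cox8 (complex IV) and Atp5 (complex V, the ATP synthase). The rule matched 84 of the 23420 genes listed: 37 in complex I, 4 in complex II, 8 in complex III, 18 in complex IV and 17 in complex V. Complexes were assigned by symbol alone, so Ndufa4 and Ndufa4l2, also named as complex IV proteins, are counted under complex I throughout. The rule also took in 3 genes that are not structural subunits, Cox7a2l, Atp5s and Atp5sl. By their symbols it left out the subunit genes Ndufab1 and Cyc1, which are counted with the electron carriers.

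Oxidative phosphorylation takes electrons from NADH at complex I and from succinate at complex II, passes them by ubiquinone to complex III and by cytochrome c to complex IV, where oxygen is reduced. Complexes I, III and IV pump protons out of the mitochondrial matrix, and complex V lets them return while it makes ATP. All subunits of complex II and most subunits of the others are encoded in the nucleus, translated in the cytosol and imported, while the mitochondrial genome encodes a few core subunits of complexes I, III, IV and V. B cells that leave rest are known to build up mitochondrial mass and respiration.

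RNA was sequenced from splenic B cells, purified with beads that removed other cells, of MRL/lpr mice, a lupus-prone strain with the Fas lpr mutation, aged 5 to 7 weeks per the labels, in 6 groups of 3 libraries, and the labels name 3 mice of each genotype, whose cells were stimulated or left unstimulated. Same-numbered libraries deviated together in Tlr9+/- and Tlr779 cells, and in Tlr997 cells only number 1 did so at a correlation over 0.1. In the first arm all mice were female and Tlr7-/-, and cells were Tlr9+/- (the control) or Tlr997, in which the TIR signaling domain of TLR7 replaces that of TLR9 in the Tlr9 locus. Each was left unstimulated or given the TLR9 agonist CpG at 10 µg/ml for 4 h. In the second arm all mice were male and Tlr9-/-, and their Tlr779 cells, in which TLR7 has a TLR9 TIR domain in place of its own, received the TLR7 agonist CL097 at 5 µg/ml for 4 h or no agonist. Both chimeras are germline changes carried by every cell of the mouse. The treatment note writes the control as Tlr9-/- Tlr7-/-, whereas the titles and the design text give a heterozygous Tlr9, which is followed here. The Tlr7WT Tlr9-/- control of the second arm was not analysed here. Sex, genotype and agonist all differ between the arms, so the arms were not tested against each other, and whether one response is larger cannot be told apart from those differences.

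The values were log2 CPM, a library-scaled read count on a log2 scale, as the authors normalized them, with no counts, so the depth of each library is unknown. Libraries of a group correlated with each other at r of 0.947 to 0.990 across all genes. Tlr7 had median values of 3.29 to 5.33 log2 CPM in the groups labelled Tlr7-/- and of 6.68 to 7.31 in Tlr779 groups, and Tlr9 stood at 6.93 to 7.47 in the libraries labelled Tlr9-/-, so transcript was listed for both genes where the labels give a knockout. The summed level of 6 B cell markers was 5523 to 7338 CPM in the unstimulated libraries and 1653 to 3160 CPM in the stimulated ones. Markers of other cells had lower sums, with 49.8 to 118 CPM for 6 T cell genes, 88.0 to 434 CPM for 5 macrophage and monocyte genes and 14.8 to 975 CPM for 5 erythroid genes. Of the erythroid genes, Hba-a1 and Hbb-b1 had a mean below 0 log2 CPM in each group. Sums were 3.59 to 81.3 CPM for 4 neutrophil genes, 1.74 to 9.93 CPM for 4 NK cell genes, 23.1 to 99.3 CPM for 3 plasmacytoid dendritic cell genes and 268 to 1036 CPM for 5 plasma cell genes. Their part in the results was not tested. A single library stood apart within its group for the genes described here: in replicate 3 of unstimulated Tlr997, 22 of 75 genes were more than 0.3 log2 units below the mean of the other 2 libraries, against 0 to 6 in each of the other 17 libraries, and results that rest on it are also given without it.

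Of the 84 genes, 75 passed the filter of at least 3 libraries above 0 log2 CPM and were tested: 35 in complex I, 4 in complex II, 8 in complex III, 11 in complex IV and 17 in complex V. Among the 9 others, 6 isoforms known mainly from other tissues had values that varied between libraries. Cox4i2 ranged from -5.15 to 0.45 log2 CPM over the 18 libraries, Cox6a2 from -1.97 to 0.10 and Cox6b2 from -4.95 to -0.18. Cox7a1 ranged from -4.05 to -0.98, Cox8b from -5.13 to -3.27 and Ndufa4l2 from -5.11 to -1.20. Cox7b2, Cox8c and Ndufs5 were listed at the same value, -5.05, in all 18 libraries. Ndufs5 encodes a complex I subunit that every respiring cell uses, so this value is not read as absence. In the annotation, 15.7% of the 75-base stretches of its transcript also occur in the processed pseudogene BC002163, which ranged from -3.56 to 0.43 log2 CPM. The 13 subunits encoded by the mitochondrial genome were not analysed here.

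After CpG in Tlr9+/- cells, most subunit genes moved up by small amounts, and few moved far. The summed level of the 75 genes was 5602, 5862 and 6005 CPM unstimulated and 7009, 7309 and 7383 CPM with CpG. In Tlr997 cells the sums were 6522, 6398 and 5962 CPM unstimulated and 7523, 7326 and 7298 CPM with CpG. Tlr779 cells had sums of 6304, 6882 and 6672 CPM unstimulated and 6937, 7344 and 7003 CPM with CL097. The libraries with agonist lay above those without it in each genotype. B cell marker sums were lower in the libraries with agonist, as given above, and their part in the result was not tested. In whole-sample RNA, fewer cells of a type and less RNA per cell cannot be told apart.

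**Figure D1:**
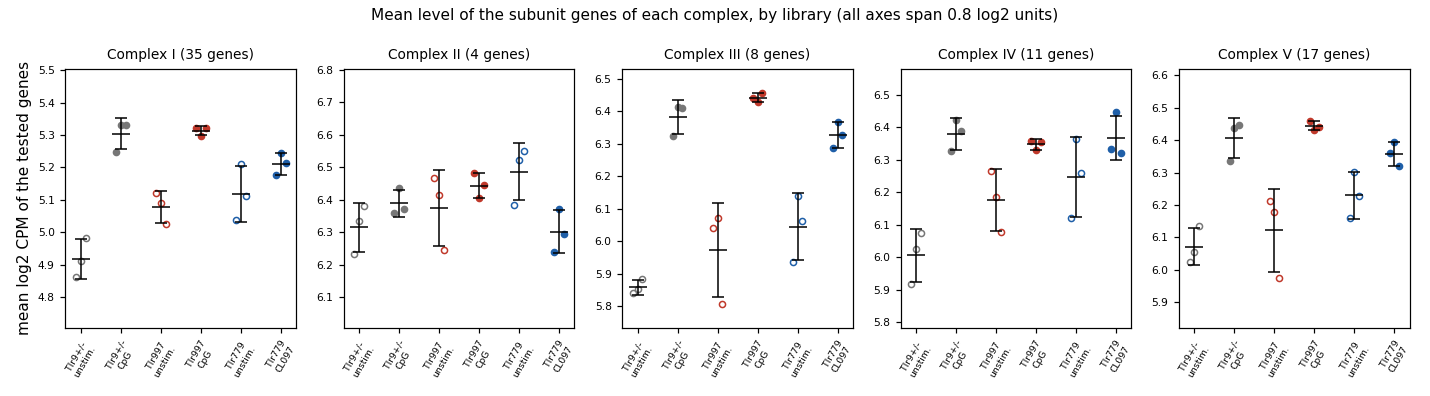
Mean log2 CPM of the tested genes of each complex (vertical axis, a span of 0.8 log2 units in every panel) in each of 18 libraries (points; open, unstimulated; filled, with agonist), with the mean and SD of 3 libraries in black. All first-arm groups (Tlr9+/- and Tlr997) are also Tlr7-/-, and Tlr779 groups are Tlr9-/-. With CpG, complexes I, III, IV and V lie above the unstimulated libraries in both genotypes, and complex II does not separate.

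A gene was called higher or lower when its limma p-value, adjusted by Benjamini-Hochberg over all genes tested, was under 0.05 and its log2 fold change was beyond 0.5. After CpG in Tlr9+/- cells, 26 of the 75 genes (34.7%) were called higher, against 29.7% of all genes tested, and 7 (9.33%) were called lower, against 28.2% of all genes. Without the limit on the fold change, 50 (66.7%) were higher, against 37.3% of all genes, and 11 (14.7%) were lower, against 35.3%. The median log2 fold change of the 75 was 0.32, against 0.04 for all genes. A change beyond 1 on the log2 scale was seen in 9 of the 75 (12%), against 36.9% of all genes. The share called higher was therefore near that of all genes, while the shares called lower and changed beyond 1 were below it.

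CpG in Tlr997 cells gave 23 of 75 genes called higher (30.7%), against 29.6% of all genes, and 9 called lower (12%), against 26.0%. At any fold, 41 were higher (54.7%, against 38.0% of all genes) and 11 lower (14.7%, against 33.1%). Their median log2 fold change was 0.26, against 0.07 for all genes. Beyond 1 on the log2 scale were 6 of the 75 (8%), against 34.5% of all genes. Without the replicate that stood apart, 20 were called higher and 9 lower, with a median of 0.24.

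CL097 in Tlr779 cells gave 11 genes called higher (14.7%), against 22.7% of all genes, and 6 called lower (8%), against 23.6%. At any fold, 20 were higher (26.7%, against 30.2% of all genes) and 11 lower (14.7%, against 31.4%). The median was 0.09, against -0.02 for all genes. A change beyond 1 on the log2 scale was seen in 2 of 75 genes (2.67%), against 24.5% of all genes. Both shares of called genes were below those of all genes. For the higher calls this rested on replicate 2 of unstimulated Tlr779: without it, 17 genes (22.7%) were called higher, against 22.4% of all genes tested in that fit.

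Across the 3 responses, 10 genes were called higher each time: Ndufa5, Ndufa12, Ndufb4, Ndufb6 and Ndufs6 of complex I, Uqcrfs1 and Uqcrq of complex III, Cox5a of complex IV, and Atp5b and Atp5s of complex V. Another 4 were called lower each time: Ndufv3, Sdha, Cox7a2l and Atp5sl. These were 13.3% and 5.33% of the 75, against 19% of the 11012 genes tested in every comparison for each direction. No gene was called in opposite directions, and 37 (49.3%, against 31.2% of all genes) were called in none of the responses. For 23 genes, Atp5a1, Cox4i1 and Ndufs1 among them, the 95% interval of the log2 fold change lay within 0.5 of 0 in all 3 responses.

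**Figure D2:**
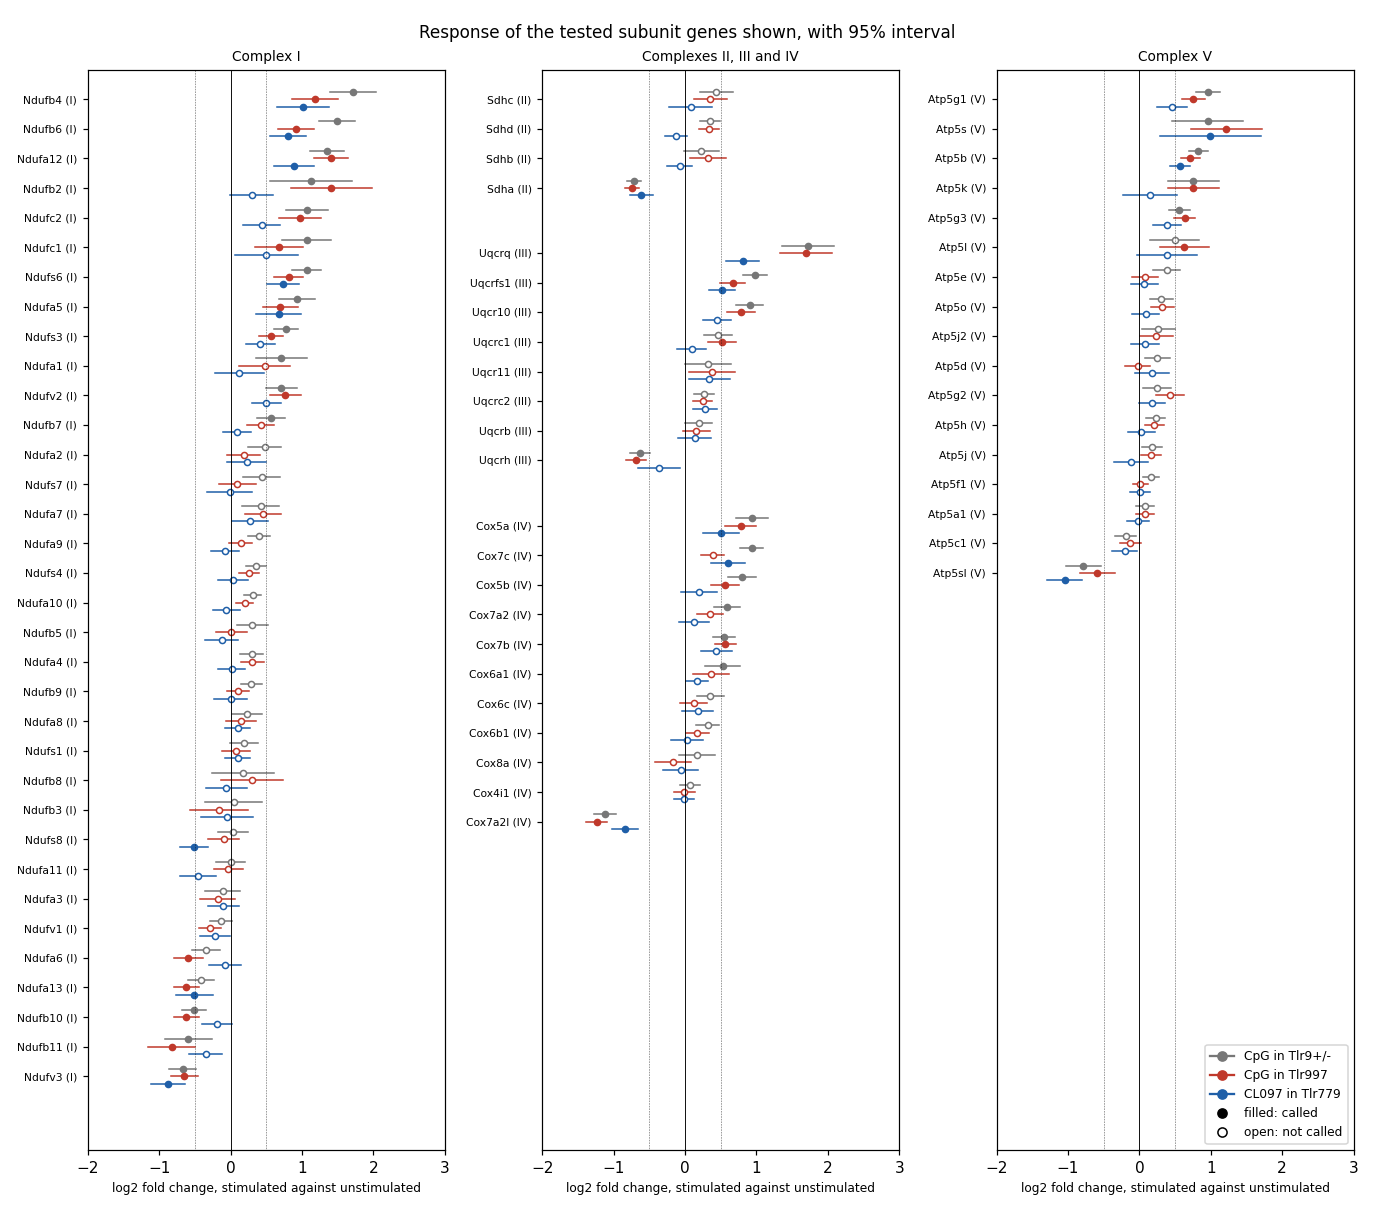
Log2 fold change (horizontal axis) of 74 of the 75 tested genes with its 95% interval after CpG in Tlr9+/- cells (grey), CpG in Tlr997 cells (red) and CL097 in Tlr779 cells (blue), 3 libraries against 3, by complex. Filled points are called and dotted lines mark 0.5 in either direction. Each complex except II holds genes called higher, and the genes called lower under complexes IV and V, Cox7a2l and Atp5sl, are not structural subunits.

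The stretch of DNA before the start is shown for 7 of these genes, chosen after their values were seen since they moved in opposite directions after the same stimulus. Each is printed 5′ to 3′ on the strand of its gene from RefSeq (GRCm38.p6), and stops where the GENCODE annotation begins an exon. The letters searched, on both strands, were those of NRF1 (GCGC and TGCGC with any 1 base between them), ETS factors (CCGGAAG), YY1 (AAGATGGC), the E-box (CACGTG), the GC box (GGGCGG), CRE (TGACGTCA) and the TATA box (TATAAA), and capitals mark a match. Ndufb4, Ndufb6, Ndufb2 and Atp5b were called higher in both CpG responses, at chr16:37654454-37654573 (minus strand), chr4:40279422-40279541 (minus strand), chr6:39592445-39592564 (plus strand) and chr10:128083153-128083272 (plus strand). Cox7a2l, Ndufv3 and Uqcrh were called lower in both, at chr17:83514334-83514453 (minus strand), chr17:31519995-31520114 (plus strand) and chr4:116075072-116075191 (minus strand), of which the first lies inside the longest extent of its gene in GENCODE.
Ndufb4: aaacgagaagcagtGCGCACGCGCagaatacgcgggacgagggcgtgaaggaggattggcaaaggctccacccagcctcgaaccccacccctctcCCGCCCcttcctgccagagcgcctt
Ndufb6: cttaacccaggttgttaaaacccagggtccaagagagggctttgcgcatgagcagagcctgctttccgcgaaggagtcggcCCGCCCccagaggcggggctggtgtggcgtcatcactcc
Ndufb2: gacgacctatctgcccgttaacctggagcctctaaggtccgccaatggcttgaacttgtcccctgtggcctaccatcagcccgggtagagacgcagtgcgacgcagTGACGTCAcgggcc
Atp5b: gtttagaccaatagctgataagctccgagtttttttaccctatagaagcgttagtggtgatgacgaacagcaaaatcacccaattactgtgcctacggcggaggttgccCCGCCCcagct
Cox7a2l: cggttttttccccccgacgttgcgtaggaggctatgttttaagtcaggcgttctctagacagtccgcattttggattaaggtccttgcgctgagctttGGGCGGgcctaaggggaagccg
Ndufv3: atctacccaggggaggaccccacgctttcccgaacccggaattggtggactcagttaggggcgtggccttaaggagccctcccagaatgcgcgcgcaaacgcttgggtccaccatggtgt
Uqcrh: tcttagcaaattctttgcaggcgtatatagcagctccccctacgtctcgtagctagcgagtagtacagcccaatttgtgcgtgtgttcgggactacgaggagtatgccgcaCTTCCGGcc
Ndufb4 shows an NRF1 match and a GC box, Ndufb6, Atp5b and Cox7a2l a GC box, Ndufb2 a CRE match, Uqcrh an ETS match, and Ndufv3 none of the letters in the bases printed. Within the full 250 bases before the start, Ndufv3 also has a GC box and Ndufb6 an ETS match.

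Of the 84 genes, 69 had a promoter in the table, and the 250 bases before the start were searched. An NRF1 match was found in 13 of 69 (18.8%), against 4.23% of all 27025 genes with a promoter, and an ETS match in 12 (17.4%), against 7.83%. The E-box was found in 7 (10.1%, against 6.86%), CRE in 4 (5.8%, against 1.77%), YY1 in 2 (2.9%, against 1.83%), the GC box in 25 (36.2%, against 35.4%) and TATA in 6 (8.7%, against 14.3%). By response, NRF1 letters were present in 4 of the 20 genes called higher in both CpG responses, 1 of the 7 called lower in both (Sdha) and 7 of the 37 other tested genes. Among the genes called lower the NRF1 match was thus in 1 gene alone, too few to compare the sets. The median GC content of these promoters was 56.4%, against 52.4% for all, and 6 of the 69 genes had more than 1 start. A match is a description of letters and not of binding.

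Complex I, which takes electrons from NADH, was the largest set. With CpG, 12 of its 35 tested genes were called higher in Tlr9+/- cells and 3 lower, in Tlr997 cells 10 and 5, and with CL097 5 and 3. The shares called higher, 34.3%, 28.6% and 14.3%, stood beside 29.7%, 29.6% and 22.7% of all genes, so those with CpG were near the background. The shares called lower, 8.57%, 14.3% and 8.57%, lay below the 28.2%, 26.0% and 23.6% of all genes. The 7 core subunits of complex I carry the flavin and the iron-sulfur clusters. Of these, 2 (28.6%) were called higher and 0 lower in each CpG response, and 0 higher and 1 lower (14.3%) with CL097.
Accessory subunits, which surround that core, held the largest increases. Ndufb4 is an accessory subunit of the membrane arm. Among the 35 tested complex I genes, it had the largest log2 fold change in Tlr9+/- cells and with CL097. In Tlr997 cells Ndufa12 and, with the replicate that stood apart included, Ndufb2 were above it. Ndufab1, which the rule left out, had means of 2.62 log2 CPM unstimulated and 4.53 with CpG in Tlr997 cells. Its means were 3.02 and 4.61 in Tlr9+/- cells, and 3.23 and 4.15 in Tlr779 cells without and with CL097.
Ndufb4 stood at 2.26, 2.40 and 2.29 log2 CPM in the unstimulated Tlr9+/- libraries and at 3.86, 4.16 and 4.06 with CpG. The Ndufb4 values in Tlr997 cells were 2.59, 2.52 and 2.97 log2 CPM unstimulated and 3.86, 4.00 and 3.78 with CpG. Tlr779 cells had Ndufb4 at 2.55, 2.77 and 2.46 log2 CPM unstimulated and at 3.45, 3.76 and 3.63 with CL097. The stimulated libraries did not overlap the unstimulated ones in any genotype. Its log2 fold changes (± SE) were 1.71 ± 0.15 in Tlr9+/- cells (limma adjusted p = 2e-07), 1.19 ± 0.15 in Tlr997 cells (adjusted p = 8.4e-06) and 1.02 ± 0.16 with CL097 (adjusted p = 0.00077). Of the 75-base stretches of its transcript, 35.2% also occur in processed pseudogenes, so reads could be split between them.

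Ndufb6, another membrane arm subunit, followed the same pattern. Ndufb6 stood at 3.32, 3.52 and 3.67 log2 CPM in the unstimulated Tlr9+/- libraries and at 5.03, 5.01 and 4.95 with CpG. The Ndufb6 values in Tlr997 cells were 3.92, 3.99 and 4.25 log2 CPM unstimulated and 4.96, 5.08 and 4.86 with CpG. Tlr779 cells had Ndufb6 at 3.92, 4.09 and 3.97 log2 CPM unstimulated and at 4.77, 4.91 and 4.71 with CL097. All stimulated values lay above all unstimulated ones within each genotype. The unstimulated Tlr997 libraries lay above the unstimulated Tlr9+/- ones, and the log2 fold change was 1.50 ± 0.12 in Tlr9+/- cells (limma adjusted p = 6e-08) and 0.91 ± 0.12 in Tlr997 cells (adjusted p = 9.3e-06), with 0.80 ± 0.11 for CL097 (adjusted p = 0.00033). Exons of Smim27 overlap 39.0% of its transcript on the opposite strand.

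Further accessory subunits rose in both CpG responses. Ndufa12, of the matrix arm, changed by 1.35 in Tlr9+/- cells, 1.41 in Tlr997 cells and 0.89 with CL097. Ndufs6, which carries a zinc ion, changed by 1.06, 0.81 and 0.73 in the same order, and Ndufa5 by 0.93, 0.70 and 0.67. All of these values were called. Ndufc1 (1.06 and 0.68) and Ndufc2 (1.07 and 0.97) were called higher with CpG, and their CL097 values of 0.50 and 0.44 were not called. Ndufb2 was called at 1.12 and 1.41. The 1.41 in Tlr997 cells rested in part on the replicate that stood apart, which read 1.94 log2 CPM beside 3.16 and 3.27, and without it the value was 0.99 (adjusted p = 7e-06).

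Among the core subunits, Ndufs3 and Ndufv2 rose with CpG. Ndufs3 stood at 5.31, 5.36 and 5.31 log2 CPM in the unstimulated Tlr9+/- libraries and at 6.09, 6.11 and 6.12 with CpG. Ndufv2 stood at 5.74, 5.86 and 5.78 log2 CPM in the unstimulated Tlr9+/- libraries and at 6.31, 6.53 and 6.67 with CpG. The CpG libraries lay above the unstimulated ones for both genes. Ndufs3 changed by 0.78 ± 0.08 in Tlr9+/- cells (limma adjusted p = 7.7e-07), 0.56 ± 0.08 in Tlr997 cells (adjusted p = 2.1e-05, and 0.46, not called, without unstimulated replicate 1) and 0.42 ± 0.09 with CL097, which was not called. Ndufv2, a subunit with an iron-sulfur cluster, changed by 0.71, 0.77 and 0.50, the last not called. Further core subunits were not called with CpG, and their values were 0.19 and 0.07 for Ndufs1, 0.43 and 0.09 for Ndufs7, 0.03 and -0.10 for Ndufs8, and -0.14 and -0.29 for Ndufv1, which binds NADH. With CL097, Ndufs8 was called lower at -0.51 (limma adjusted p = 0.00099), and the call was lost, at -0.50 to -0.48, when any 1 of 4 of the 6 libraries was left out.

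Ndufv3, an accessory subunit of the NADH-oxidizing module, fell in every response. Ndufv3 stood at 4.93, 4.99 and 5.12 log2 CPM in the unstimulated Tlr9+/- libraries and at 4.26, 4.30 and 4.47 with CpG. The Ndufv3 values in Tlr997 cells were 5.11, 5.24 and 5.19 log2 CPM unstimulated and 4.55, 4.46 and 4.56 with CpG. Tlr779 cells had Ndufv3 at 5.40, 5.34 and 5.20 log2 CPM unstimulated and at 4.31, 4.43 and 4.56 with CL097. No stimulated library overlapped an unstimulated one of its genotype. The log2 fold changes were -0.67 ± 0.09 (limma adjusted p = 1.1e-05), -0.65 ± 0.09 (adjusted p = 1.6e-05) and -0.88 ± 0.10 (adjusted p = 0.00018). Ndufb10 and Ndufb11 of the membrane arm were called lower with CpG, at -0.51 and -0.62 and at -0.59 and -0.83, and their CL097 values were -0.19 and -0.35, not called. The -0.83 of Ndufb11 in Tlr997 cells was -1.06 without the replicate that stood apart. In Tlr9+/- cells Ndufb10 was not called without unstimulated replicate 1 or 3 or CpG replicate 1, at -0.50 to -0.46. Ndufa13 was called lower in Tlr997 cells (-0.62) and with CL097 (-0.51, not called without CL097 replicate 1 or unstimulated replicate 2, at -0.40 and -0.47), and Ndufa6 in Tlr997 cells alone among the tests (-0.59), beside -0.41 and -0.35 in Tlr9+/- cells. The difference between the CpG responses of these genes was -0.21 for Ndufa13 (adjusted p = 0.41) and -0.24 for Ndufa6 (adjusted p = 0.38).

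Complex II, succinate dehydrogenase, links the tricarboxylic acid cycle to the respiratory chain, and its 4 genes did not move together. Sdha, the flavoprotein that oxidizes succinate, fell in all 3 responses. Sdha stood at 8.02, 8.04 and 8.01 log2 CPM in the unstimulated Tlr9+/- libraries and at 7.31, 7.34 and 7.26 with CpG. The Sdha values in Tlr997 cells were 7.98, 7.92 and 7.94 log2 CPM unstimulated and 7.17, 7.19 and 7.25 with CpG. Tlr779 cells had Sdha at 8.06, 8.05 and 8.10 log2 CPM unstimulated and at 7.34, 7.52 and 7.50 with CL097. The groups did not overlap, and the 3 libraries of each group lay within 0.2 log2 units of each other. Its log2 fold changes were -0.72 ± 0.05 (limma adjusted p = 7e-09), -0.74 ± 0.05 (adjusted p = 6.2e-09) and -0.61 ± 0.07 (adjusted p = 0.00013).

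None of the other 3 complex II genes was called in any response. With Sdha, 1 of 4 (25%) was called lower each time, beside 28.2%, 26.0% and 23.6% of all genes. Sdhb, the iron-sulfur subunit, had 0.23 ± 0.11 in Tlr9+/- cells, 0.32 ± 0.11 in Tlr997 cells and -0.08 ± 0.08 with CL097. The Sdhb value in Tlr997 cells was 0.15 without the replicate that stood apart. The membrane anchors Sdhc and Sdhd had 0.44 and 0.34 in Tlr9+/- cells, 0.35 and 0.34 in Tlr997 cells, and 0.08 and -0.13 with CL097. In both CpG responses Sdha thus lay below 0 and Sdhb, Sdhc and Sdhd above it.

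Complex III, the cytochrome bc1 complex, had 3 of 8 genes called higher and 1 lower in Tlr9+/- cells, 4 and 1 in Tlr997 cells, and 2 and 0 with CL097. The shares called higher were 37.5%, 50% and 25%, against 29.7%, 29.6% and 22.7% of all genes, in a set of 8. Uqcrq, a small subunit known as a ubiquinone-binding protein, had the largest log2 fold change of all 75 genes in both CpG responses. Uqcrq stood at 4.68, 4.54 and 4.89 log2 CPM in the unstimulated Tlr9+/- libraries and at 6.41, 6.41 and 6.45 with CpG. The Uqcrq values in Tlr997 cells were 4.82, 5.05 and 4.17 log2 CPM unstimulated and 6.29, 6.42 and 6.42 with CpG. Tlr779 cells had Uqcrq at 4.86, 5.01 and 4.83 log2 CPM unstimulated and at 5.87, 5.63 and 5.62 with CL097. Every stimulated library lay above every unstimulated one of its genotype. Its log2 fold changes were 1.72 ± 0.17 (limma adjusted p = 6.7e-07), 1.69 ± 0.17 (adjusted p = 8.8e-07) and 0.81 ± 0.10 (adjusted p = 0.00024). The Tlr997 value was 1.44 without the replicate that stood apart, which held the lowest Uqcrq value, and Ndufa12, at 1.48, then lay above it.

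Uqcrh, the hinge protein that contacts cytochrome c1, went the other way with CpG. Uqcrh stood at 7.25, 7.2 and 7.14 log2 CPM in the unstimulated Tlr9+/- libraries and at 6.54, 6.60 and 6.55 with CpG. The Uqcrh values in Tlr997 cells were 7.48, 7.33 and 7.21 log2 CPM unstimulated and 6.63, 6.63 and 6.71 with CpG. Tlr779 cells had Uqcrh at 7.25, 7.52 and 7.39 log2 CPM unstimulated and at 6.80, 7.28 and 6.98 with CL097. The groups were separate in the first arm and overlapped in Tlr779 cells. The log2 fold changes were -0.63 ± 0.07 (limma adjusted p = 1.3e-06) and -0.69 ± 0.07 (adjusted p = 6.3e-07) with CpG, both called lower, and -0.37 ± 0.13 with CL097 (adjusted p = 0.034), not called.

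Uqcrfs1, the Rieske iron-sulfur protein, was called higher in each response. Uqcrfs1 stood at 5.79, 5.98 and 5.83 log2 CPM in the unstimulated Tlr9+/- libraries and at 6.83, 6.86 and 6.84 with CpG. The Uqcrfs1 values in Tlr997 cells were 6.31, 6.20 and 5.99 log2 CPM unstimulated and 6.83, 6.79 and 6.89 with CpG. Tlr779 cells had Uqcrfs1 at 6.05, 6.27 and 6.20 log2 CPM unstimulated and at 6.67, 6.73 and 6.67 with CL097. The stimulated libraries lay above the unstimulated ones each time. It changed by 0.98, 0.67 and 0.52, and the CL097 value fell under the limit, at 0.50 and 0.45, without Tlr779 CL097 replicate 2 or unstimulated replicate 1. Uqcr10, a small subunit, was called higher with CpG at 0.90 and 0.79 and had 0.45 with CL097, not called. Of the core proteins, Uqcrc1 had 0.46, 0.51 and 0.10, of which the Tlr997 value was called (0.39, not called, without the replicate that stood apart), and Uqcrc2 had 0.27, 0.24 and 0.28, none called.

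Complex IV, cytochrome c oxidase, had 6 of 11 tested genes called higher and 1 lower in Tlr9+/- cells, 3 and 1 in Tlr997 cells, and 2 and 1 with CL097. The shares called higher were 54.5%, 27.3% and 18.2%, against 29.7%, 29.6% and 22.7% of all genes. The share called lower was 9.09% in each response, against 28.2%, 26.0% and 23.6% of all genes. The gene called lower each time was Cox7a2l, whose product is known for joining complexes III and IV into supercomplexes and is not a structural subunit of the enzyme. Cox7a2l stood at 6.87, 6.90 and 6.97 log2 CPM in the unstimulated Tlr9+/- libraries and at 5.82, 5.85 and 5.70 with CpG. The Cox7a2l values in Tlr997 cells were 7.21, 7.04 and 6.99 log2 CPM unstimulated and 5.89, 5.84 and 5.79 with CpG. Tlr779 cells had Cox7a2l at 7.17, 7.28 and 7.23 log2 CPM unstimulated and at 6.28, 6.52 and 6.35 with CL097. The groups were far apart in each genotype. Cox7a2l had the lowest log2 fold change of all 75 genes in both CpG responses, at -1.12 ± 0.07 (limma adjusted p = 5.7e-09) and -1.24 ± 0.07 (adjusted p = 2.5e-09), with -0.84 ± 0.08 for CL097 (adjusted p = 5.8e-05). Its structural relative Cox7a2 was called higher in Tlr9+/- cells at 0.58 and not called elsewhere, at 0.35 in Tlr997 cells and 0.12 with CL097.

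Cox5a and Cox5b, which fold against the catalytic core, rose with CpG. Cox5a changed by 0.94 ± 0.10 in Tlr9+/- cells (limma adjusted p = 1.9e-06), 0.78 ± 0.10 in Tlr997 cells (adjusted p = 1.4e-05) and 0.50 ± 0.11 with CL097 (adjusted p = 0.0046), the last not called without replicate 2 of CL097 (0.43), replicate 1 of unstimulated Tlr779 (0.45) or its replicate 3 (0.45). Cox5b had 0.80 and 0.56, both called, the second not without the replicate that stood apart (0.49), and 0.20 with CL097, not called. Cox4i1, the regulatory subunit that is the main form outside the lung, had 95% intervals within 0.5 of 0, at 0.07, -0.01 and -0.01. The small subunits Cox6a1 (0.53) and Cox7b (0.54) were called higher in Tlr9+/- cells, and Cox7b also in Tlr997 cells (0.57). Both were close to the limit in Tlr9+/- cells: Cox6a1 was not called without unstimulated replicate 1 (0.48) or 2 (0.46), nor Cox7b without CpG replicate 2 (0.49). Cox6b1 had 0.32 and 0.17, and Cox8a had 0.17 and -0.16, none of them called.

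Complex V had 5 of 17 genes called higher and 1 lower in Tlr9+/- cells, 6 and 1 in Tlr997 cells, and 2 and 1 with CL097. The shares called higher, 29.4%, 35.3% and 11.8%, were near the 29.7% and 29.6% of all genes with CpG and below the 22.7% with CL097. The share called lower was 5.88% in each response, against 28.2%, 26.0% and 23.6% of all genes. The main catalytic pair of complex V split. Atp5b, the β subunit with the catalytic sites, rose in each response. Atp5b stood at 9.56, 9.60 and 9.67 log2 CPM in the unstimulated Tlr9+/- libraries and at 10.41, 10.39 and 10.51 with CpG. The Atp5b values in Tlr997 cells were 9.67, 9.79 and 9.64 log2 CPM unstimulated and 10.47, 10.44 and 10.34 with CpG. Tlr779 cells had Atp5b at 9.71, 9.76 and 9.74 log2 CPM unstimulated and at 10.30, 10.35 and 10.28 with CL097. The stimulated and unstimulated libraries did not overlap. The log2 fold changes were 0.83 ± 0.06 (limma adjusted p = 2.7e-08), 0.72 ± 0.06 (adjusted p = 1.4e-07) and 0.57 ± 0.06 (adjusted p = 1e-04).

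Atp5a1, the α subunit that alternates with β in the same ring, had 0.08 ± 0.06, 0.08 ± 0.06 and -0.03 ± 0.07. Atp5a1 stood at 9.50, 9.60 and 9.59 log2 CPM in the unstimulated Tlr9+/- libraries and at 9.63, 9.66 and 9.64 with CpG. The Atp5a1 values in Tlr997 cells were 9.72, 9.63 and 9.49 log2 CPM unstimulated and 9.71, 9.69 and 9.69 with CpG. Tlr779 cells had Atp5a1 at 9.68, 9.69 and 9.76 log2 CPM unstimulated and at 9.62, 9.76 and 9.67 with CL097. The Atp5a1 groups overlapped in Tlr997 and Tlr779 cells and lay close together in Tlr9+/- cells. Atp5c1, the central stalk subunit γ, had -0.19, -0.13 and -0.21, and Atp5o, of the peripheral stalk, had 0.31, 0.32 and 0.09, none called.

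**Figure D3:**
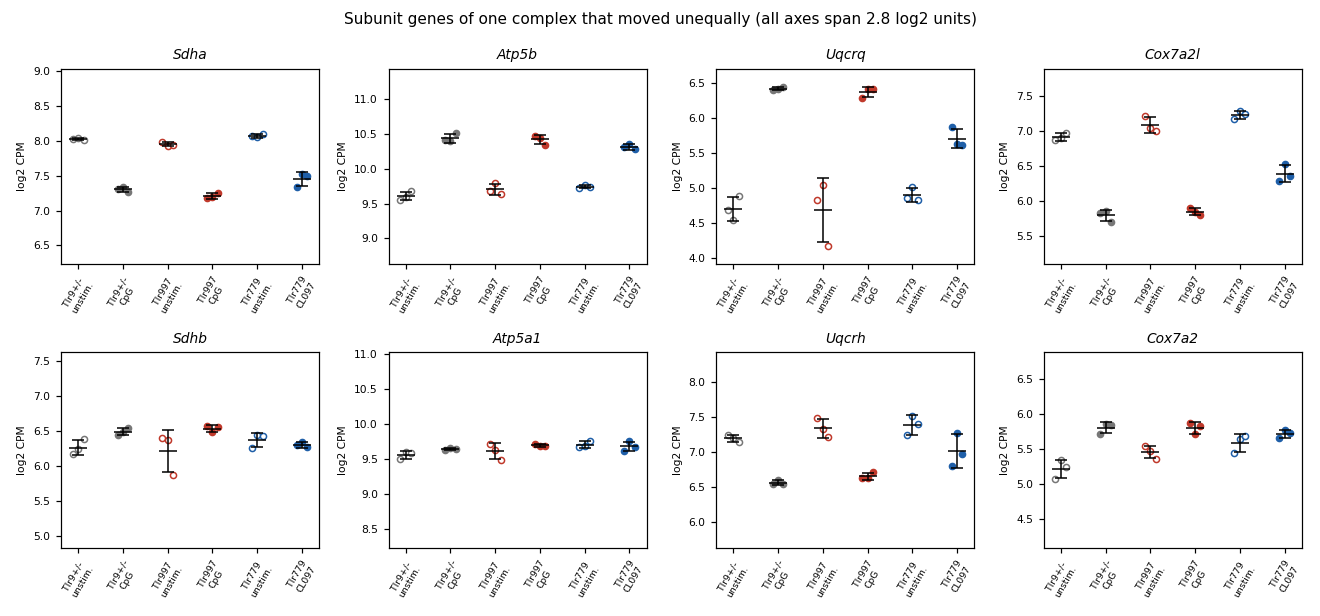
Log2 CPM (vertical axes, each spanning 2.8 log2 units) of 8 genes in 18 libraries (points; open, unstimulated; filled, with agonist), with mean and SD of 3 libraries in black. Each column holds a pair from the same complex (Cox7a2l counted with complex IV), chosen after their values were seen. With CpG, Sdha, Uqcrh and Cox7a2l drop, and Atp5b and Uqcrq rise. The log2 fold changes of Sdhb and Atp5a1 with CpG lie within 0.5 of 0. Cox7a2 was called higher in Tlr9+/- cells alone.

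The c subunit of the ATP synthase ring is encoded by 3 genes whose products differ in their import sequence and share the mature protein. Atp5g1 was called higher with CpG at 0.96 ± 0.08 in Tlr9+/- cells (limma adjusted p = 8.2e-08) and 0.76 ± 0.08 in Tlr997 cells (adjusted p = 1e-06), with 0.46 ± 0.09 for CL097, not called. Atp5g3 was called at 0.56 and 0.63, with 0.39 for CL097, not called. Atp5g2 had 0.25, 0.43 and 0.17, none called. Of the 75-base stretches of the Atp5g2 transcript, 35.8% also occur in other transcripts.

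Among the complex V symbols, Atp5s and Atp5sl stand for proteins outside the enzyme's core structure. Atp5s, also named Dmac2l, was called higher at 0.95, 1.22 and 0.99, and the last was not called when CL097 replicate 1 (0.78), CL097 replicate 2 (0.94) or unstimulated replicate 3 (0.82) was left out. Atp5sl, also named Dmac2 and known as a complex I assembly factor, was called lower at -0.79, -0.59 and -1.05, and its Tlr997 value was -0.46, not called, without unstimulated replicate 1. Atp5k, the e subunit, was called higher with CpG at 0.76 and 0.75. Its Tlr997 value was 0.53, still called, without the replicate that stood apart. Atp5l, the g subunit, was called in Tlr997 cells at 0.63 (0.45, not called, without the replicate that stood apart), and 76.0% of its 75-base stretches occur in pseudogenes and other transcripts.

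The comparison of Tlr997 with Tlr9+/- cells asks whether the TIR domain of the receptor changes these genes. With CpG, 0 of the 75 genes were called, against 2.72% of all genes tested, with a lowest limma adjusted p of 0.067. An unadjusted limma p under 0.05 was seen in 8 of the 75, against 19% of all genes. The median difference was 0.02 on the log2 scale. The 95% intervals lay within 0.5 of 0 for 69 of the 75 genes and reached from -0.58 to 0.64 over all of them. For the other 6 genes the interval reached past the fold limit, so a difference of that size could not be resolved with 3 libraries a group.

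Without agonist, 0 of the 75 genes were called, against 0.0174% of all genes, with a lowest limma adjusted p of 0.22. An unadjusted limma p under 0.05 was seen in 25 of the 75, against 10.8% of all genes. The difference, Tlr997 minus Tlr9+/-, was above 0 for 61 of the 75 genes, with a median of 0.12, against -0.01 for all genes tested. A like median, 0.11, was found for 80 cytosolic ribosomal protein genes, of which 34 had an unadjusted p under 0.05. The median of 76 mitochondrial ribosomal protein genes was 0.05. All 11 complex IV genes lay above 0, from 0.01 (Cox8a) to 0.42 (Cox7c). The median of the 75 genes was 0.18 without the Tlr997 replicate that stood apart. Genes of one library are not independent of each other, so the count of directions carries no test.

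**Figure D4:**
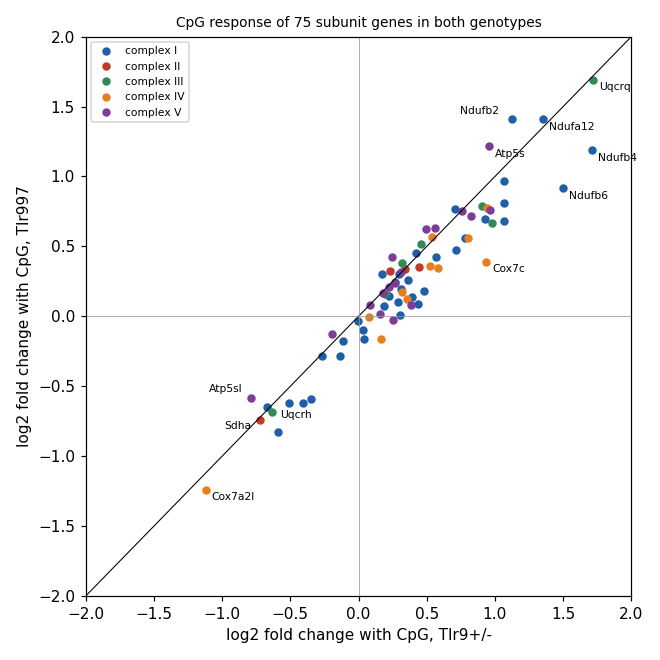
Log2 fold change after CpG in Tlr9+/- cells (horizontal axis) and in Tlr997 cells (vertical axis) for 75 genes, coloured by complex, with the line of equality. The genes lie along the line from Cox7a2l to Uqcrq, and Ndufb4, Ndufb6 and Cox7c lie farthest below it.

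Calls shared between the genotypes were counted next. Of 26 genes called higher in Tlr9+/- cells, 21 (80.8%) were also called in Tlr997 cells, which were 91.3% of the 23 called there. All 7 genes called lower in Tlr9+/- cells were among the 9 called lower in Tlr997 cells (77.8%). Over all genes tested, the shared calls were 86.2% and 86.4% of the higher calls and 83.8% and 90.9% of the lower calls, so the shares of the members lay on either side of these. Over the 75 genes, Pearson's r between the responses was 0.95, against 0.94 over all 11012 genes tested in every comparison, which is a description across genes of libraries that share their processing.

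In the test of the difference between the CpG responses, 7 of the 75 genes had an unadjusted limma p under 0.05, against 16% of all genes. The test called 1 of the 75, against 1.54% of all genes. This was Cox7c, a small subunit of complex IV. Cox7c stood at 4.89, 5.01 and 5.00 log2 CPM in the unstimulated Tlr9+/- libraries and at 5.79, 6.02 and 5.90 with CpG. The Cox7c values in Tlr997 cells were 5.39, 5.31 and 5.45 log2 CPM unstimulated and 5.77, 5.75 and 5.81 with CpG. Tlr779 cells had Cox7c at 4.83, 4.97 and 5.04 log2 CPM unstimulated and at 5.45, 5.72 and 5.48 with CL097. The CpG libraries of both genotypes reached like levels, whereas every unstimulated Tlr997 library lay above every unstimulated Tlr9+/- library. The log2 fold change was 0.94 ± 0.07 in Tlr9+/- cells and 0.39 ± 0.07 in Tlr997 cells, a difference of -0.55 ± 0.11 (limma adjusted p = 0.02). The call was lost without unstimulated Tlr9+/- replicate 1 (-0.50, adjusted p = 0.063), CpG replicate 2 (-0.49, adjusted p = 0.059) or CpG replicate 3 (-0.55, adjusted p = 0.062), and 20.8% of the 75-base stretches of its transcript occur in pseudogenes.

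Ndufb6 (-0.58 ± 0.16, adjusted p = 0.096) and Ndufb4 (-0.52 ± 0.21, adjusted p = 0.25) had differences of like size that were not called. Over the 75 genes the difference was below 0 for 57, with a median of -0.11, against 0.01 for all genes. The median was also -0.11 for 76 mitochondrial ribosomal protein genes, and -0.05 for 80 cytosolic ones. The 95% interval lay within 0.5 of 0 for 47 of the 75 genes, and for the remaining 28 it reached past the fold limit.

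Genes that work with these subunits were counted by lists, each read against the shares of all genes, 29.7%, 29.6% and 22.7% called higher and 28.2%, 26.0% and 23.6% called lower in the order of the 3 responses. Among 36 tested assembly factors, which build the complexes, 19 were called higher and 4 lower with CpG in Tlr9+/- cells, 21 and 3 in Tlr997 cells, and 11 and 3 of 35 with CL097. These were 52.8%, 58.3% and 31.4% higher. Ndufaf2 rose by 2.10 in Tlr9+/- cells and Ndufaf4 by 2.04, both assembly factors of complex I, while Ndufaf3 fell to -1.30. Their medians, 0.57, 0.68 and 0.27, lay above those of the subunits, 0.32, 0.26 and 0.09.

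Of 18 electron carriers and linked dehydrogenases, 11 were called higher and 1 lower in Tlr9+/- cells, 11 and 2 in Tlr997 cells, and 8 and 2 with CL097, or 61.1%, 61.1% and 44.4% higher. Pdss1 and Coq4, which act in ubiquinone synthesis, had 2.12 and 2.04 in Tlr9+/- cells, 2.05 and 1.92 in Tlr997 cells, and 1.61 and 1.34 with CL097. Etfdh, which feeds electrons from fatty acid oxidation to ubiquinone, was called lower at -0.99, -0.69 and -0.58. The tricarboxylic acid cycle list had 5 of 17 genes higher and 1 lower in each CpG response and 2 and 1 with CL097. Its 29.4% higher with CpG was near that of all genes, and its 11.8% with CL097 was below it. Idh3a, of the NAD-linked isocitrate dehydrogenase, was called higher at 1.74, 1.86 and 1.38, and Fh1, the fumarase that acts after Sdha, was called lower at -0.89, -0.94 and -0.93.

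Among 17 regulators of mitochondrial gene expression, 9 were called higher and 3 lower in Tlr9+/- cells, 9 and 2 in Tlr997 cells, and 6 and 1 with CL097, or 52.9%, 52.9% and 35.3% higher. Ppargc1a, the coactivator PGC-1α, was called lower at -2.99, -3.00 and -0.98, while its relative Pprc1 was called higher at 1.45, 1.53 and 1.42. Ppargc1a was a low gene, with group means of 0.95 log2 CPM unstimulated and -2.04 with CpG in Tlr9+/- cells. In Tlr997 cells they were 1.5 and -1.5. The means with CpG lay under the filter limit of 0, so the size of these changes is uncertain. Slirp, which binds mitochondrial transcripts, was called higher at 1.55 in Tlr9+/- cells and 1.32 with CL097. In Tlr997 cells its group means were 3.38 log2 CPM unstimulated and 4.84 with CpG. Of 10 genes that limit or protect respiration, 4 were higher and 4 lower in Tlr9+/- cells, 4 and 3 in Tlr997 cells, and 2 and 2 with CL097, with 40%, 40% and 20% higher. Prdx3, a mitochondrial peroxidase, was called higher at 1.41, 1.19 and 1.01, whereas Ucp2, an inner membrane carrier, was lower at -0.89 in Tlr9+/- cells and -0.64 with CL097. In Tlr997 cells the group means of Ucp2 were 9.39 log2 CPM unstimulated and 8.69 with CpG. No gene of these lists was called between the genotypes, with or without CpG, or in the difference of the responses.

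Against gene sets of like kind, the subunit genes lay between both kinds of ribosome. Of 76 mitochondrial ribosomal protein genes, which serve translation of the subunits encoded in mitochondria, 64 were called higher and 0 lower in Tlr9+/- cells, 62 and 0 in Tlr997 cells, and 42 and 2 with CL097, or 84.2%, 81.6% and 55.3% higher. Their median log2 fold changes were 1.01, 0.91 and 0.55. Of 80 tested cytosolic ribosomal protein genes, 8 were called higher and 5 lower in Tlr9+/- cells, 7 and 6 in Tlr997 cells, and 5 and 0 with CL097, or 10%, 8.75% and 6.25% higher, with medians of -0.20, -0.22 and -0.07. The medians of the 75 subunit genes, at 0.32, 0.26 and 0.09, lay between these in each response.

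**Figure D5:**
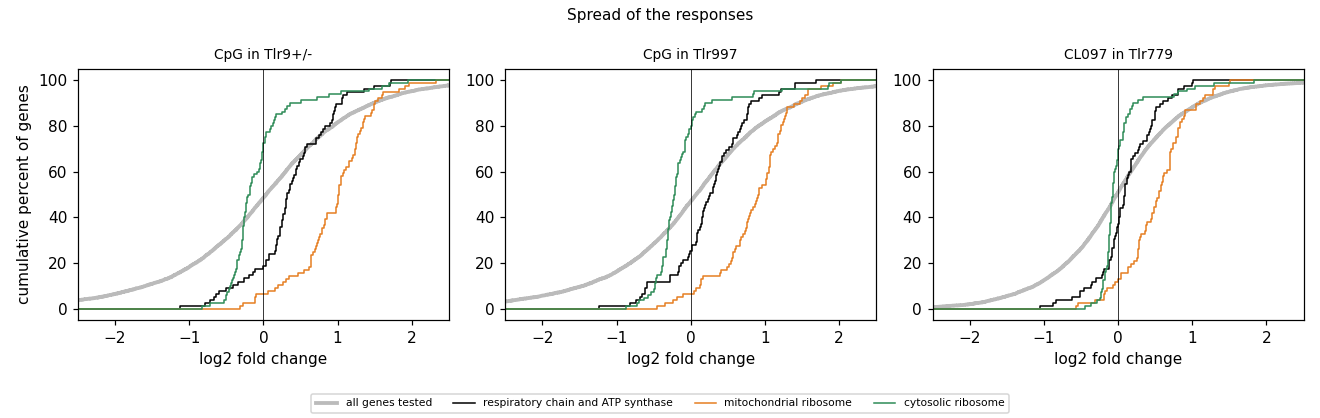
Cumulative percent of genes (vertical axis) at or below each log2 fold change (horizontal axis) for the 75 subunit genes (black), all genes tested (grey), 76 mitochondrial ribosomal protein genes (orange) and 80 cytosolic ribosomal protein genes (green), in 3 responses. The black curve is steeper than the grey one and lies between the green and orange curves over most of its course, with medians of 0.32, 0.26 and 0.09.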

How the data were processed

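RNA was measured by sequencing of mRNA libraries from 18 samples in 6 groups. The deposited values were log2 CPM: the authors trimmed reads with Trim Galore 0.6.5, aligned them to mm10 with STAR 2.6.1a, counted them per gene with featureCounts (Subread 2.0.1), and applied quantile normalization and the voom transformation. Quantile normalization sets 1 distribution for all libraries, so changes in total RNA cannot be seen, and depth and counts are unknown here. Multimapper and strand settings of the counting were not given in the sources used here. Among 6614 genes low in all 12 Tlr7-/- libraries, 6306 held a single value per replicate number, so an offset per gene and number appears to have been removed from the deposited values. The main fits did not count such an offset, so their standard errors, intervals and adjusted p may be too small.

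Genes with at least 3 fitted libraries above 0 log2 CPM were tested with limma 3.58.1 in R 4.3.3, with a trend of the variance, in a model of 12 libraries for the Tlr7-/- arm (11494 genes) and of 6 for Tlr779 (11082 genes). P-values were adjusted by Benjamini-Hochberg over all genes tested. Calls needed an adjusted p under 0.05 and a log2 fold change beyond 0.5. The code was tested on simulated data.

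The members and lists were chosen with earlier results of these data known. Named by rule were 5 called members from each end of the range of log2 fold changes in every comparison, the core and catalytic subunits, the isoform sets, and up to 2 called genes in each direction per list. Other members were named after their values were seen. Replicate numbers were checked by correlating deviations from group means over 11494 genes: same-numbered unstimulated and stimulated libraries gave 0.51, 0.29 and 0.51 in Tlr9+/-, 0.20, 0.42 and 0.28 in Tlr779, and 0.37, 0.083 and 0.025 in Tlr997. The pairing comes from the labels, which give 3 mice per genotype, and is borne out for the first 2 genotypes. Promoters came from RefSeq (GRCm38.p6), and gene positions and shared 75-base stretches from GENCODE vM21, which held all 84 members. A single gene is counted among the members but its own values are not reported here.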

Additional observations from a re-analysis of the deposited data

Results flagged for a closer look

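Cox7c, a subunit of complex IV, differed between the genotypes in its response to CpG, as tested by the interaction term. The difference, Tlr997 minus Tlr9+/-, was -0.55 on the log2 scale (limma adjusted p = 0.02). All 3 unstimulated Tlr997 libraries lay above all 3 unstimulated Tlr9+/- libraries, and the CpG libraries of both genotypes overlapped. The direct comparison of the unstimulated groups did not call Cox7c, at a difference of 0.42. Leaving out unstimulated Tlr9+/- replicate 1, CpG replicate 2 or CpG replicate 3 gave adjusted p of 0.063, 0.059 and 0.062. The groups of 3 libraries are too small for a test of single outlying libraries.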

How the results depend on the processing

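The median over the members changed sign in 1 case: for Tlr997 against Tlr9+/- with CpG it was 0.02, and -0.01 without CpG Tlr9+/- replicate 1. The other medians over the members kept their sign under the alternatives run. Of the counts and medians, 427 values under an alternative stayed within 1.5 times the count or the replicate spread and 17 did not. With a fold change threshold of 0, 50 genes were higher and 11 lower with CpG in Tlr9+/- cells, 41 higher in Tlr997 cells, and 20 higher and 11 lower with CL097. With a threshold of 1, the counts were 8 and 1, 5 and 1, and 1 and 1, and 0 genes differed between the CpG responses. Array quality weights called 2 genes lower in that difference (Cox7c and Ndufb6). Leaving out 1 library gave 25 to 30 higher and 6 to 7 lower in Tlr9+/- cells, 20 to 24 and 8 to 9 in Tlr997 cells, 9 to 17 and 4 to 7 with CL097 (17 without unstimulated Tlr779 replicate 2), and 0 to 1 lower in the difference of the responses. The medians then ran from 0.29 to 0.37, 0.24 to 0.29, 0.05 to 0.12 and -0.16 to -0.06. A replicate block gave 26 and 7, 23 and 9, and 11 and 6, and changed no count of calls. Among single genes, 67 values lost a call (41 of them at the threshold of 1) and 38 gained one, Atp5s with CL097 among those lost without a filter (adjusted p = 0.1). Depth is unknown, and 3 libraries a group limit the precision.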
